A study of Drosophila melanogaster with 2 samples.

Results

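The Polycomb group genes ph-p, ph-d, E(z), Pc, Psc, Su(z)2, Sce, esc, Su(z)12 and pho were examined for binding of the CG4730 protein in Drosophila melanogaster embryos. These 10 genes, taken by name from 13968 protein-coding genes, were each given the peaks whose summit lay in the gene or within 1 kb of it. Chromatin immunoprecipitation with sequencing (ChIP-seq) had been done with an antibody to GFP on transgenic embryos aged 0 to 24 hours that expressed a CG4730-eGFP fusion. The labels give 1 group with 2 biological replicates, whole embryos of the CG4730-GFP strain, and the peak lists, which hold no expression markers, cannot show which embryonic cells carried the binding or whether untagged CG4730 binds alike. Every peak carries the authors' deposited signal value, whose unit is not stated. Lists were thresholded by the irreproducible discovery rate (IDR). The global IDR, used here, estimates the share of irreproducible peaks among those ranked at least as high between the compared inputs.

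Polycomb group proteins keep developmental genes silent through cell division. In Polycomb repressive complex 2, E(z) methylates histone H3 with Su(z)12 and esc as partners. In Polycomb repressive complex 1, Pc reads that mark, ph-p and ph-d encode the Polyhomeotic subunits, Psc and its relative Su(z)2 are scaffold subunits, and Sce is the ubiquitin ligase. The pho protein binds DNA directly and helps to bring the complexes to their target elements. Several Polycomb group genes, ph among them, are known targets of the complexes they encode.

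Of the 10 genes, 5 held a peak of the pooled thresholded list, which has 3571 peaks. They were ph-p with 4 peaks, ph-d with 2, and E(z), Psc and Su(z)12 with 1 each, which makes 9 distinct peaks. Among all coding genes 22.7% held a peak by the same rule. Polycomb group genes are longer than most, with a median of 8360 bp against 2164.5 bp for all coding genes. Among coding genes within the members' range of 1599 to 14998 bp the share was 24.8%. That range kept 7433 of the 13968 coding genes and was not matched to the members' median length, so it does not account for length. The members' share, 50%, rests on 10 genes and was not tested. The same 5 genes held a peak in each replicate's own thresholded list, where 16.6% of coding genes in replicate 1 and 17.4% in replicate 2 held one.

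The strongest peak at any member lay in ph-p, with its summit in a segment that did not align to the duplicate ph-d. The genes ph-p (FBgn0004861, 2126210 to 2138371) and ph-d (FBgn0004860, 2115727 to 2123286) are a tandem duplication on X, and their loci were aligned to each other. The start of ph-d at 2123286 aligned with the middle of the 3 ph-p starts, at 2136855. Upstream of that shared start the aligned blocks were interrupted at 3 places. The segments at those nearest to the start are printed because the strongest summits of both genes fell inside them. All are written on the genes' strand, which is the minus strand of dm6, and capitals mark the word TTTCATTT.

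ph-p segment without a counterpart (chrX:2137265-2137472): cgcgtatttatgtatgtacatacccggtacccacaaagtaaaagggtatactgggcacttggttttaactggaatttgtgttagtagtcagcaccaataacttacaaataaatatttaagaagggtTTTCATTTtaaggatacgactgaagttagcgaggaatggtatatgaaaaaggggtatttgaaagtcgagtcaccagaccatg
ph-p segment under the second peak (chrX:2137856-2137953): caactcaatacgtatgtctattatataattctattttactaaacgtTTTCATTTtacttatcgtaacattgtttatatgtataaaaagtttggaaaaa
ph-d segment in the equivalent slot (chrX:2124053-2124261): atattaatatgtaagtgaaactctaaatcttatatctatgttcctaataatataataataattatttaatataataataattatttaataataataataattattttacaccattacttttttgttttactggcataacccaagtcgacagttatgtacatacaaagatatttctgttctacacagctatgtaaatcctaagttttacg

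The first ph-p segment is 208 bp long and faces only 15 bp in ph-d. The second is 98 bp long in ph-p and 209 bp in ph-d, flanked by the same aligned blocks in both genes. The word TTTCATTT stands once in each ph-p segment and is not in the ph-d segment. It was picked after these windows had been read, and it occurs on either strand in 3.66% of all pooled summit windows of 50 bp to each side and in 2.30% of flanking windows 500 bp away.

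The peak over the first ph-p segment (X, 2137200 to 2137525) reached a signal of 807 in replicate 1 and 827 in replicate 2 (817 ± 14.0, mean ± SD, n = 2). Its pooled summit lay 498 bp upstream of the shared start, the summits in the replicates 501 and 499 bp upstream, all in an intron of the transcript from the outermost start. It ranked 8 of 2309 thresholded peaks in replicate 1 and 6 of 2434 in replicate 2. In the pooled list its signal was 1619, rank 6, and it was the second strongest of the 697 peaks on X. Only 11 coding genes, ph-p included, had a peak this strong or stronger in their windows.

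The second ph-p peak (X, 2137722 to 2138027) had its summit 527 bp further upstream, 491 bp downstream of the outermost start and in a noncoding first exon. Its signal was 367 in replicate 1 and 289 in replicate 2 (328 ± 55.7, mean ± SD, n = 2). The summit was at the same base in both replicates, and the pooled signal of 645 was rank 79 of the pooled list and 13 on X. The gap between these ph-p peaks, 817 against 328 in mean replicate signal, was far larger than the SD between replicates of either, 14.0 and 55.7.

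The other pair of ph-p peaks was weaker. An intronic peak (X, 2135197 to 2135536) 1255 bp downstream of the innermost start had a signal of 68.6 in replicate 1 and 81.7 in replicate 2 (75.2 ± 9.25, mean ± SD, n = 2), with a pooled rank of 1159. The peak whose summit lay 1 bp from the innermost start (X, 2136453 to 2136792) had 66.9 in replicate 1, but 34.7 in replicate 2, where it did not pass the threshold (50.8 ± 22.8, mean ± SD, n = 2). In all, 4 summits stood within 2513 bp of one another. Among coding genes of all lengths 0.845% held 4 or more pooled peaks, anywhere in their windows. That share was not matched to the length of ph-p, 12162 bp, or to the spacing of its summits.

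At ph-d the upstream peak (X, 2123927 to 2124266) was the stronger one. Its signal was 126 in replicate 1 and 84.6 in replicate 2 (105 ± 29.4, mean ± SD, n = 2), and its summit lay 811 bp upstream of the shared start, in the slot that holds the second peak of ph-p. The pooled signal was 220.0, rank 606 and rank 114 on X. In both replicates this value was below those of the first 2 ph-p peaks and did not overlap with them. At the point of ph-d that faces the first ph-p segment, the pooled ranked list, which holds 143047 peaks before thresholding, had none. The nearest ranked summits were 375 bp and 393 bp away.

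The weakest of the 9 peaks lay in a ph-d intron (X, 2121997 to 2122336), 375 bp upstream of the inner ph-d start. It passed in the pooled list with a signal of 62.8, rank 3300 and a global IDR of 0.00937, just inside the threshold of 0.01. In the replicates' ranked lists it had 39.8 and 22.4 (31.1 ± 12.3, mean ± SD, n = 2) and passed in neither, nor in the authors' conservative list. Just outside the threshold was a summit 219 bp into the first ph-d exon, with a pooled signal of 61.4 and an IDR of 0.0135. Just outside the window of 1 kb was a pooled peak 1025 bp upstream of the ph-d start, with a signal of 48.9.

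Reads that fit both ph copies cannot be placed in one of them, and no source used here says what the authors did with such reads. None of the 6 ph summits lay in an aligned block. Blocks covered 40.5% of the ph-p window and 56.4% of the ph-d window, mostly through the longest block (2126824 to 2131227 in ph-p, 2116869 to 2121323 in ph-d). That block lies downstream of every annotated start of its gene, while all 6 summits lay within 1255 bp of a start. The shares over whole windows are therefore no measure of what to expect at the summits. The peaks themselves reached into the blocks. The strongest ph-p peak had 36.2% of its length in aligned blocks, the second ph-p peak 68.0%, the upstream ph-d peak 38.5% and the ph-p peak at the innermost start 13.5%, while the remaining peak of each gene had 0%. The weak peak 1025 bp upstream of ph-d, outside the window, did lie in one. Of the 16 ranked summits in the ph-p window 4 were in aligned blocks, as were 5 of 11 at ph-d. In the longest block, 92.0% identical, 56.0% of the 36-base words of ph-p occur in ph-d as well. In the block over the shared start the share was 14.7%, and in the blocks on either side of the second segment, 70.5% and 81.0% identical, it was 0%. In the strongest ph-p peak itself 0.344% of such words were found elsewhere in the genome, and in the other 8 member peaks 0%. The part of read mapping in the placing of these peaks was not tested.

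**Figure D1:**
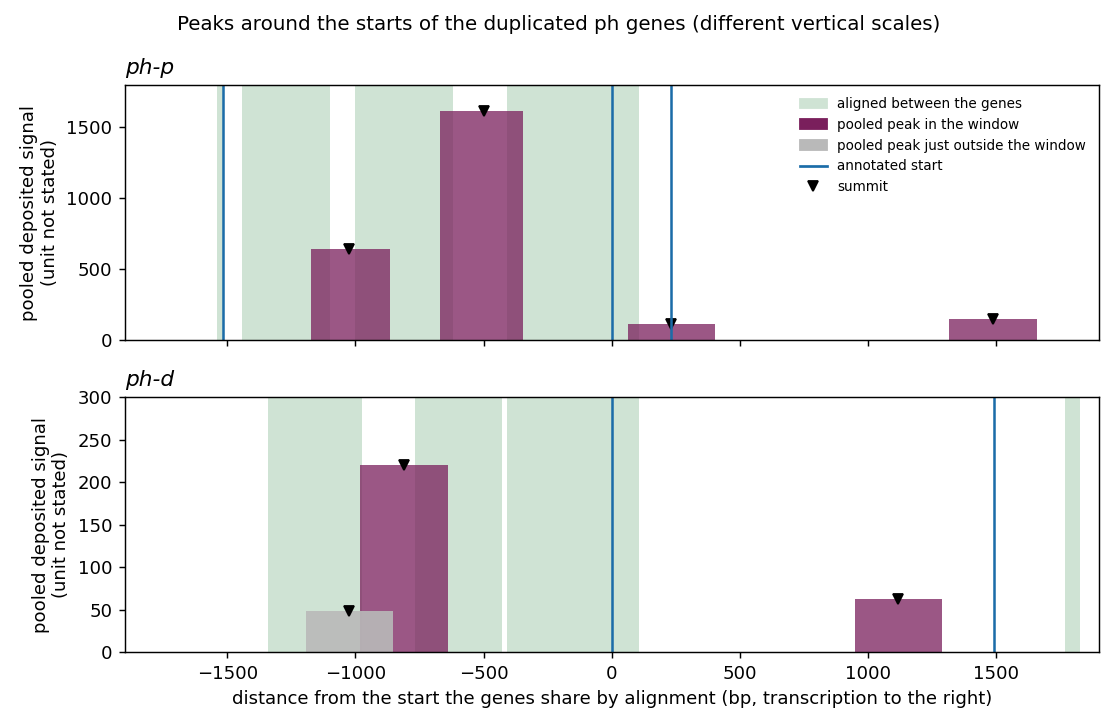
Pooled deposited signal (unit not stated, linear axis, different scale for each gene) against distance in bp from the start that ph-p and ph-d share by alignment, with transcription to the right. Bars span the peaks (grey, the one just outside the ph-d window), triangles mark summits, blue lines are annotated starts and shading marks aligned blocks. The summits at -498 and -1025 bp in ph-p and at -811 bp in ph-d stand in unshaded gaps.

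Of the complex that writes the histone mark, E(z) and Su(z)12 held a peak at their starts and esc held none. The windows below are 101 bases around each pooled summit, on the minus strand, which is the strand of both genes. They show how unlike in composition the promoter summits were. In E(z) the capitals mark the longest run of A and T, and in Su(z)12 the word TTTCATTT.

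E(z) (chr3L:10637964-10638064): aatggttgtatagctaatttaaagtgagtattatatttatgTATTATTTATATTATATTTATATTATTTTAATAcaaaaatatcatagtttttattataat
Su(z)12 (chr3L:19923309-19923409): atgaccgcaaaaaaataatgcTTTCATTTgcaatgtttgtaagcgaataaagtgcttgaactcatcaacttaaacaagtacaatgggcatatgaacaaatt

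The E(z) peak (FBgn0000629; 3L, 10637960 to 10638048) was 89 bp wide, with its summit 116 bp downstream of the outer E(z) start, in an intron, and 132 bp from the start of the divergent gene Cnep1r2 (FBgn0036090). Its signal was 152 in replicate 1 and 162 in replicate 2 (157 ± 6.93, mean ± SD, n = 2), with summits 51 bp apart. The pooled signal was 312, rank 317. Within 50 bp of the pooled summit 88.1% of bases were A or T, a share that 0.141% of the 3551 pooled summit windows on the chromosome arms reached. Its unbroken A/T run was 33 bp long, a length that 0.366% of windows reached, while the median longest run was 10 bp. Repeat masking covered 88.8% of this peak, and 0% of its 36-base words were found elsewhere.

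The Su(z)12 peak (FBgn0020887; 3L, 19923189 to 19923528) had its summit 103 bp downstream of the single annotated start, in the noncoding part of the first exon, and 312 bp from the start of the divergent gene Pfdn6 (FBgn0036918). Its signal was 85.2 in replicate 1 and 60.8 in replicate 2 (73 ± 17.3, mean ± SD, n = 2). The pooled signal was 156, rank 1057. Both replicate values were below both values at E(z). A or T made up 68.3% of the bases around the summit, which 49.0% of pooled windows reached.

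The remaining partner, esc (FBgn0000588; 2L, 11827204 to 11829405), had 5 summits in the pooled ranked list and none past the threshold. The strongest lay in coding sequence 1802 bp downstream of the start, with a pooled signal of 54.9, rank 5861 and an IDR of 0.0170. Its signal was 21.6 in replicate 1 and 35.3 in replicate 2.

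Among the remaining subunits of the complex that reads the mark, Psc held a peak and Pc, Su(z)2 and Sce did not. The Psc peak (FBgn0005624; 2R, 12975495 to 12975670) lay in an intron, 5070 bp downstream of the nearest start. It had 173 in replicate 1 and 172 in replicate 2 (172 ± 1.26, mean ± SD, n = 2), which is the closest pair among the 9 peaks. Its pooled signal was 345, rank 270, the third highest at any member. It was the only one of the 5 genes with a peak that had no summit within 1 kb of a start. Within 50 bp of its summit 73.3% of bases were A or T.

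Psc and Su(z)2 are neighbours on 2R, 15506 bp apart and transcribed away from each other, and 3 pooled peaks lay between them outside both windows. The strongest of these, at 2R 12985068 to 12985333, was 4207 bp upstream of Psc, 11300 bp upstream of Su(z)2 and 166 bp upstream of the start of lncRNA:CR44339. It had 333 in replicate 1 and 400.0 in replicate 2 (366 ± 47.5, mean ± SD, n = 2), above the Psc peak in both, and a pooled rank of 63. In Su(z)2 itself (FBgn0265623; 2R, 12996501 to 13007911) the pooled ranked list held 16 summits. The strongest of them, at 37.8, was rank 21224, in coding sequence, with 13.3 in replicate 1 and 25.1 in replicate 2.

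At Sce (FBgn0003330; 3R, 27680431 to 27682029) the strongest of 5 ranked summits lay in coding sequence with a pooled signal of 54.7, rank 5919 and an IDR of 0.291. It had 19.4 in replicate 1 and 32.4 in replicate 2. At Pc (FBgn0003042; 3L, 21306138 to 21318020) the strongest of 7 ranked summits lay downstream of the gene, 570 bp from the start of CG7632. It had a pooled signal of 22.7, rank 64600, which leaves 45.2% of the ranked list above it. Its overlapping peak had 19.1 in replicate 1, and replicate 2 listed none there. Inside Pc the strongest ranked summit lay in coding sequence, with a pooled signal of 21.2. Repeats make up much of Pc in the reference, where 81.5% of its bases were masked and 76.3% of its 36-base words were found elsewhere, against 0% for Sce and 0.0527% for Su(z)2. Whether this kept peaks from being called in Pc was not tested. The nearest thresholded peak was 1525 bp beyond the 3' end of Pc, 45 bp from the start of CG11309, with a pooled signal of 220.3.

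The DNA-binding member pho (FBgn0002521; 1172469 to 1181628) lies on chromosome 4 and was the only member with no peak in either pooled ranked list or in that of replicate 1. Replicate 2's ranked list held 5 summits there, the strongest with a signal of 31.5, rank 5440 and an IDR of 0.676. Few genes on chromosome 4 had any: 8 of 80 coding genes held a pooled ranked summit, against 92.5% of all coding genes and 9 of the 10 members. In the ranked lists of replicates 1 and 2 the numbers were 10 and 22 of 80, and 1 of 80 held a pooled thresholded peak. The absence at pho cannot be told apart from that of its chromosome. Masked repeats covered 28.6% of pho and 8.65% of its 36-base words were found elsewhere.

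**Figure D2:**
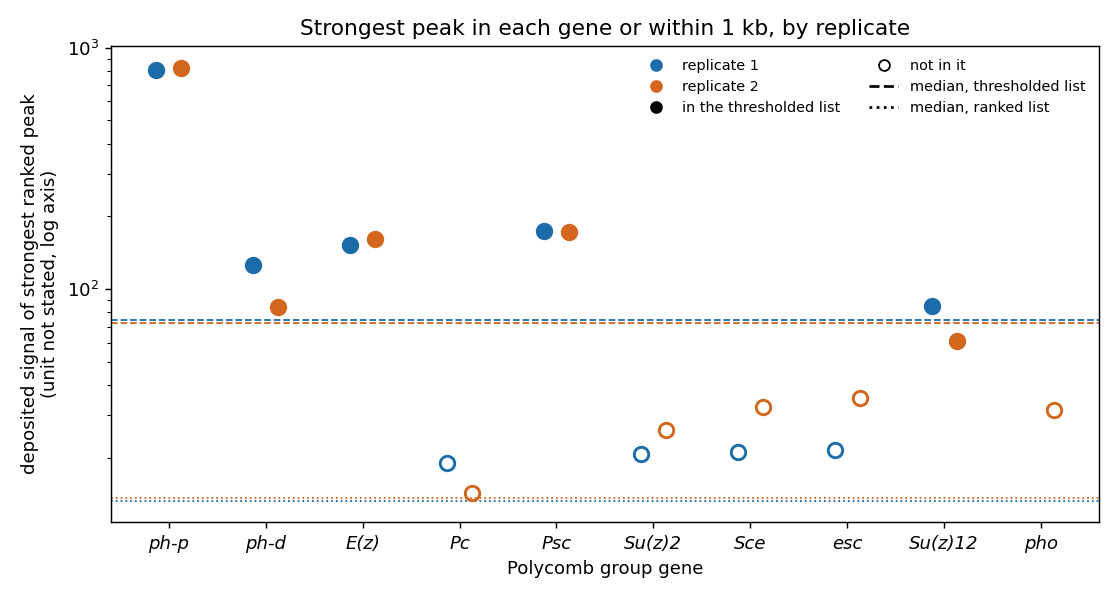
Deposited signal (unit not stated, log axis) of the strongest peak in each gene's window in the ranked list of replicate 1 (blue) and replicate 2 (orange). Filled points are genes with a peak in that replicate's thresholded list, dashed and dotted lines are the medians of the thresholded and ranked lists, and pho has no point for replicate 1. The 5 genes with a peak have values from 60.8 at Su(z)12 to 827 at ph-p, and all values of the others are below them. The threshold itself favours stronger peaks, so this order largely follows from the split.

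Before thresholding, the median density of ranked summits at the members was that of all coding genes, though single members differed. The median over the 10 genes was 1.19 pooled ranked summits per kb of window, and over all coding genes it was 1.19. The lowest members were pho at 0 and Pc at 0.504, and the highest was E(z) at 1.62. Of the 9 thresholded peaks, 8 were also in replicate 1's thresholded list, 7 in replicate 2's and 7 in both. The conservative list held 8. The whole lists hold 2309 peaks in replicate 1, 2434 in replicate 2 and 3263 in the conservative list, against 3571 pooled. The share of all pooled peaks found again in this way was not counted, so these counts do not set the member peaks apart.

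**Figure D3:**
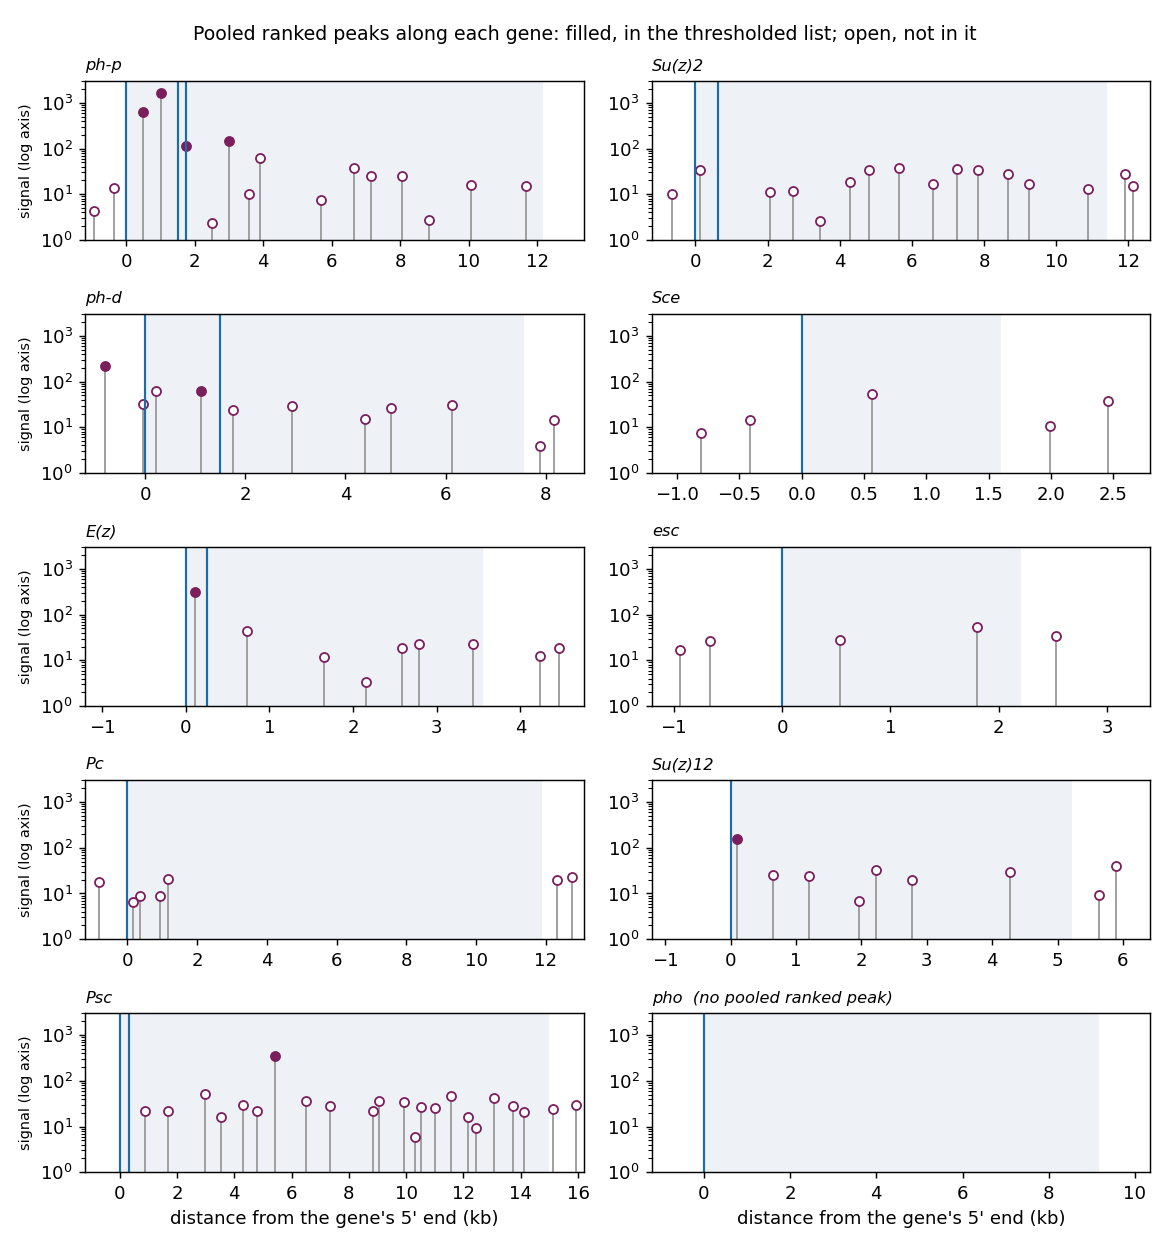
Pooled ranked peaks along each gene, as deposited signal (unit not stated, log axis) against distance in kb from the gene's 5' end, with the gene shaded and starts as blue lines. Filled points are in the pooled thresholded list. At ph-p, E(z) and Su(z)12 they lie within 1255 bp of a start of their gene. The Psc peak is 5070 bp from the nearest start, and pho has no point.

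Base composition at the member summits was that of the whole list, apart from both extremes. The median A or T share within 50 bp was 68.3% over the 9 member windows, 67.3% over all 3551 pooled windows and 56.4% over their flanks. The lowest share, 45.5%, was at the ph-p summit beside the innermost start, and 95.6% of pooled windows were at or above it. The highest was that of E(z), and the second ph-p peak came next at 77.2%.

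**Figure D4:**
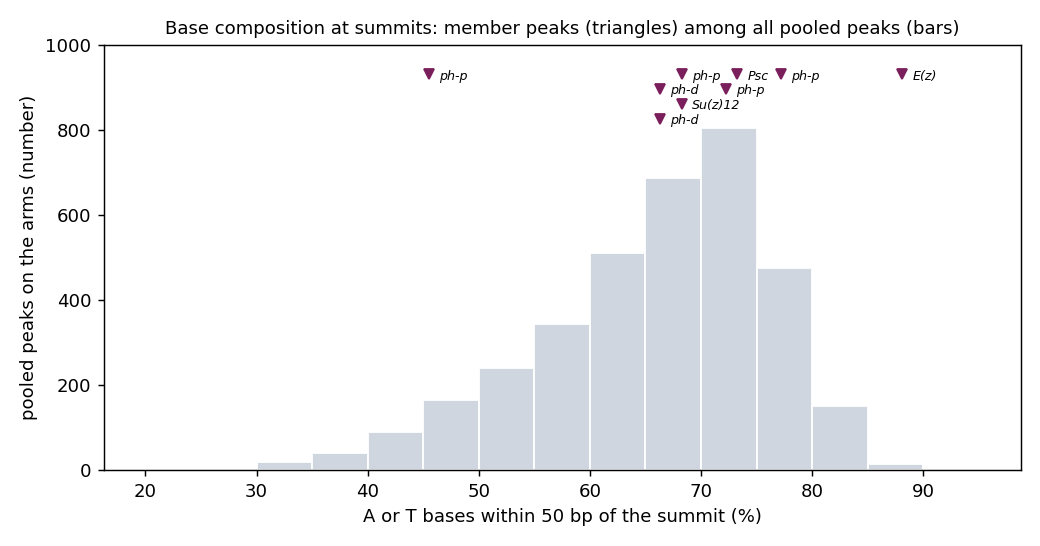
Share of A or T bases (%) within 50 bp of the summit for all pooled peaks on the chromosome arms (bars, number of peaks in each 5-point bin) and for the 9 member peaks (triangles, whose height carries no value). The E(z) window at 88.1% is at the upper edge and a ph-p window at 45.5% in the lower part.

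None of the 9 member windows held the GAGA factor word GAGAG or the Pho core word GCCAT, both of proteins known at Polycomb response elements. On either strand these occur in 8.11% and 14.2% of pooled windows. In flanking windows 500 bp away the shares were higher, 13.8% and 18.9%. Nor did any hold TATCGATA, TATATTAA or AGATGGCG, which occur in 0.873%, 3.86% and 1.21%. The last 2 words were picked on these peaks by earlier work. The word TTTCATTT was in 3 of the 9, the stronger ph-p pair and Su(z)12. With 9 windows, such counts describe the member summits only.

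Other lists were counted in the same way. Of 24 further genes listed as Polycomb genes, 8 held a pooled peak (33.3%), against 22.7% of all coding genes. Among 24 trithorax group genes, which counteract Polycomb silencing, 9 did (37.5%), and of 25 classic Polycomb target genes 9 did (36%). Their median lengths were 6840, 7436.5 and 17164 bp, so the target genes in particular offered more room than the average coding gene. The median of the strongest pooled signal over genes with a peak was 312 for the 5 Polycomb members, 130.3 for the further Polycomb genes, 203 for trithorax genes, 136 for target genes and 135 for all coding genes. None of these differences was tested.

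The highest further Polycomb genes were grh (pooled signal 227), Dsp1 (210.2), caly (159.8), psq (147), lolal (114) and RYBP (112). The summits counted for Dsp1, caly and RYBP lay outside those genes and nearest to the starts of CG9921, CG42837 and lncRNA:CR44761. At grh, which encodes the DNA-binding protein Grainy head, the values were 84.7 in replicate 1 and 141 in replicate 2. Among trithorax genes ash1 came first at 2034, but that summit lay downstream of ash1 and nearest to the start of CG14100. Trl, the gene of GAGA factor, had 4 peaks, the strongest at 895 with 452 in replicate 1 and 445 in replicate 2. The chromatin remodelling genes brm and osa followed at 762, with a summit nearest to the start of Arl1, and 735, then kis at 203 and Rbbp5 at 174. Inside osa and kis the nearest starts were those of lncRNA:CR46035 and lncRNA:CR44222, and the Rbbp5 summit lay upstream of the gene and nearest to the start of eRF1. Among target genes tin was highest at 402, with 178 in replicate 1 and 232 in replicate 2, followed by Dll (221), Doc1 (174), hth (171), Antp (136) and Abd-B (113). The replicates were further apart at Dll, with 60.4 in replicate 1 and 156 in replicate 2, and at Abd-B, with 38.6 and 74.8. The Doc1 summit lay downstream of the gene and nearest to the start of Argk2, and the start nearest to the Antp summit was that of lncRNA:CR43252. The tagged gene CG4730 held no thresholded peak in any list and 5 pooled ranked summits in its window.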

How the data were processed

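ChIP-seq peak lists of 2 replicates of 1 group were used. Coordinates are on dm6, per the labels. No source used here names the aligner or the peak caller or gives the read depth, and the control library was not analysed here. The authors deposited, per replicate and for pooled replicates, ranked lists and lists thresholded by IDR. The signal deposited with each peak is in an unstated unit. The deposited score per peak served only to match peaks between lists. The −log10 of the global IDR comes from the authors' ranked lists. Every thresholded peak passed an IDR of 0.01. The pooled ranked lists hold 16 unnamed columns that were not used.

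Genes were those of Ensembl's annotation (18277 on the arms) and sequence was NCBI's, whose arm lengths contain all peak ends. Ranks order peaks by signal within a list. Replicate values are those of the overlapping peak (at least 1 bp) with the nearest summit in each replicate's ranked list. The SD is taken over these 2 values, and no test between groups was possible. The ph loci were aligned with blastn 2.17.0 (E-value limit 1e-05, no low-complexity filter), a step added after the peaks had been seen. Assignment of summits was tested on simulated data, where 100% of 200 planted genes among 13968 came back. Members, lists and words were chosen with earlier results of these data known. Every member was named, and from each other list the 6 genes with the highest pooled signal. Python 3.11.15, numpy 2.4.6 and pandas 2.3.3 were used. Alternatives were other lists, windows and overlaps, and, added after seeing the data, other IDR thresholds.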

Additional observations from a re-analysis of the deposited data

How the results depend on the processing

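The count of members with a peak ran from 4 to 6 over all 12 settings tried, against 5 as reported. It was 4 when only 1 kb around starts counted, which left out Psc, and 16.5% of all coding genes held a peak by that rule. With a window of 2 kb it was 6, which added Pc, and the share of all coding genes was 27.9%. At an IDR of 0.05 it was 6 as well, which added esc. That list had 5665 peaks, and the share of all coding genes was not counted for it. With the conservative list, the stronger peaks and each replicate's own list it was 5. The distinct peaks numbered 7 to 11, and the peaks found in both replicates were 6 with a reciprocal overlap of 50%. The share of all coding genes with a peak, 22.7%, became 14.3% with the 1786 stronger peaks and 10% with the gene body only. Counted within 1 kb of a start, the further Polycomb genes with a peak became 5 of 24, the trithorax genes 5 of 24 and the target genes 2 of 25. Among all coding genes 2303 of 13968 (16.5%) held a peak by that rule. No paired analysis was possible because there is 1 group. Read depth was not given, so how far it limits the weaker peaks is unknown, and values rest on 2 replicates.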
